A study of Arabidopsis thaliana with 126 samples.

Results

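Histone deacetylases remove acetyl groups from lysines of histone tails, and loss of acetylation is usually accompanied by lower transcription of the underlying gene. *Arabidopsis* has zinc-dependent enzymes related to yeast RPD3 and HDA1 (the *HDA* genes), plant-specific HD2 proteins (the *HDT* genes) and NAD-dependent sirtuins (the *SRT* genes). Several of the *HDA* enzymes act inside corepressor complexes, for instance with the TOPLESS (TPL) and SIN3-like (SNL) proteins. INO80 is an ATP-dependent remodeling complex that moves nucleosomes and acts on the histone variant H2A.Z, and EEN, INO80 and ARP5 are subunits of it.

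The 10 *HDA* genes described here are *HDA2* (AT5G26040), *HDA5* (AT5G61060), *HDA6* (AT5G63110), *HDA7* (AT5G35600), *HDA8* (AT1G08460), *HDA9* (AT3G44680), *HDA14* (AT4G33470), *HDA15* (AT3G18520), *HDA18* (AT5G61070) and *HDA19* (AT4G38130). They are 10 of the 33602 genes listed, and they were taken by locus identifier. The set was chosen by measured values in one respect: *HDA2* was singled out because its mRNA was low in every *een*, *ino80* and *arp5* mutant. Those differences are therefore given as a description, without a test.

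RNA-seq was made from 3-day-old etiolated seedlings, with 2 libraries per group. The first table holds L*er*, *ein6-1*, *een-1*, the double mutant *ein6-1 een-1* and *ein2-45*, all in the L*er* background, in air or after 4 hr of ET. *ein6-1* carries a small deletion in *EIN6*, which encodes the H3K27 demethylase REF6, *een-1* is a chromosomal inversion that fuses *AQI* and *EEN*, and *ein2-45* is a mutation of the central ET signalling gene *EIN2*. The second table holds Col-0 and the *een-2*, *ino80-8* and *arp5-1* mutants, all in air, so that no ET response exists for these alleles. The background of *arp5-1* is not stated in the sources used here. The paper compares it with Col-0. It reports that double mutants including *ref6-1 arp5-1* had a milder ET phenotype than *ein6-1 een-1*. It speculates that the background (L*er* or Col-0), the allele of *EIN6* (*REF6*), or both, might cause this. Each mutant is 1 line. Values are TPM, a level corrected for transcript length whose sum is fixed in each library. The depth of the libraries is unknown, because TPM does not keep it.

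The targeted genes followed their labels where the lesion lowers mRNA. *EEN* was 0.32 and 1.01 TPM in the *een-2* libraries against 50.27 and 38.56 in Col-0, *INO80* was 3.41 and 2.87 TPM in *ino80-8* against 19.02 and 20.45, and *AQI* lay between 10.82 and 14.48 TPM in the libraries with *een-1* against 90.84 and 98.25 in L*er* air. *ARP5* was 3.96 and 4.37 TPM in *arp5-1* against 5.51 and 5.36 in Col-0, and *EIN6* was not lower in *ein6-1* (10.74 and 9.51 TPM in air against 4.76 and 5.66 in L*er*), so mRNA does not check these labels. The etiolation gene *PORA*, the root genes *PIN2* and *COBL9* and the shoot genes *ATML1* and *STM* were above 0 in all 28 libraries. Ribosomal RNA took 2.8 to 30.3% of the TPM in the first table and 0.921 to 3.54% in the second, and the library labelled *ein6-1* ET replicate 2 stood apart with the highest share. The median log2 change over all tested genes ranged from -0.46 to 0.33 between comparisons, and results are also given after rescaling each library by the median ratio to the other libraries.

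*HDA2* encodes the only class IV enzyme of the family, related to animal HDAC11. Its gene lies on chromosome 5 at 9099152 to 9101682 (TAIR10.1, minus strand), with 12 exons and 2 annotated mRNAs. In air, L*er* had 4.82 and 7.83 TPM, *ein6-1* had 9.71 and 7.03, and *ein2-45* had 8.61 and 6.26. In the same table *een-1* had 0.69 and 0.65 TPM and *ein6-1 een-1* had 0.84 and 1.16. After ET, L*er* had 6.8 and 7.36 TPM, *ein6-1* had 9.15 and 6.06, *ein2-45* had 6.29 and 8.92, *een-1* had 0.86 and 0.97, and *ein6-1 een-1* had 1.57 and 1.79. In the second table Col-0 had 8.59 and 7.55 TPM, *een-2* 0.63 and 0.82, *ino80-8* 0.66 and 0.88, and *arp5-1* 0.41 and 0.73. The 28 libraries thus fell into 14 with 4.82 to 9.71 TPM and 14 with 0.41 to 1.79 TPM, and all of the second kind carried a lesion in *EEN*, *INO80* or *ARP5*. Seedlings were measured whole, so fewer cells with *HDA2* mRNA and less of it per cell cannot be told apart.

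**Figure D1:**
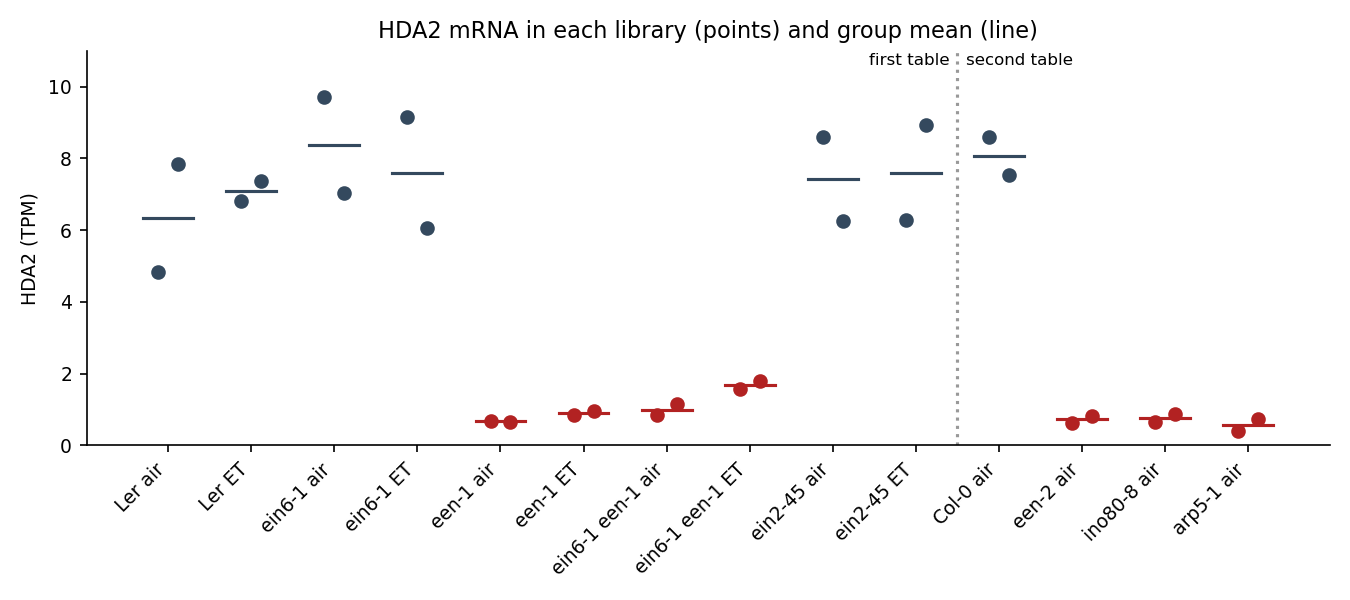
*HDA2* mRNA (TPM, vertical axis) in each library (points) of the 14 groups (horizontal axis), with the group mean as a line and mutants of the INO80 complex in red. The red libraries lie between 0.41 and 1.79 TPM and the others between 4.82 and 9.71 TPM.

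The mean TPM of *HDA2* was 9.44-fold lower in *een-1* than in L*er* in air and 7.74-fold lower after ET. In *ein6-1 een-1* it was 6.33-fold lower in air and 4.21-fold lower after ET. Against Col-0 it was 11.1-fold lower in *een-2*, 10.5-fold lower in *ino80-8* and 14.2-fold lower in *arp5-1*. On the log2(TPM + 1) scale, which understates the change of a low gene, these differences were -2.10 ± 0.26 (SE), -2.08 ± 0.26, -1.85 ± 0.26 and -1.59 ± 0.26 in the L*er* background (*een-1* in air and ET, then the double mutant in air and ET). They were -2.39 ± 0.23, -2.36 ± 0.23 and -2.54 ± 0.23 in *een-2*, *ino80-8* and *arp5-1*. Ranked from the most reduced gene, *HDA2* was number 30 of 20592 tested genes in *een-1* air and number 18 after ET, and number 118 and 431 in the double mutant in air and after ET. In the second table it was number 16 of 20152 in *een-2* and number 10 in *ino80-8*. In *arp5-1*, where many more genes were low, it was number 187. In the second table only the Col-0 libraries reached the minimum of 1 TPM that a gene needed to be tested.

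Ordered by mean level, the 7 groups without a lesion in the complex ran from *ein6-1* air (8.37 ± 1.90 TPM, SD, n = 2) to L*er* air (6.33 ± 2.13), and each overlapped the next. The double mutant after ET came next with 1.68 ± 0.16 TPM and overlapped neither neighbour in that order. From the double mutant in air (1.00 ± 0.23 TPM) down to *arp5-1* (0.57 ± 0.23), each group again overlapped the next one.

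*HDA2* passed the test in none of the comparisons of the first table that did not select it and for which a test is given. ET against air gave a log2 difference of 0.17 in L*er* (95% interval -0.36 to 0.71, limma adjusted p = 0.654). In *een-1* the difference was 0.20, but *HDA2* was below 1 TPM in all of its libraries, so no test is given there. In *ein6-1 een-1* both ET libraries were above both air libraries, with a difference of 0.43 (-0.11 to 0.96, adjusted p = 1). The value was -0.13 in *ein6-1* (-0.67 to 0.40) and 0.03 in *ein2-45* (-0.51 to 0.56). For L*er*, *ein6-1* and *ein2-45* the sign turned after rescaling. *ein6-1* differed from L*er* by 0.37 in air (-0.16 to 0.90, adjusted p = 0.498) and by 0.07 after ET (-0.47 to 0.60), and *ein2-45* by 0.22 in air (-0.31 to 0.75) and 0.07 after ET (-0.46 to 0.61).

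*HDA2* values were higher in *ein6-1 een-1* than in *een-1*. All *een-1* libraries were below 1 TPM, so no test of this difference is given for *HDA2*. The double mutant was above *een-1* in both libraries in air, with a log2 difference of 0.26. After ET it was also above in both, by 0.48. The mutants of the second table were all below 1 TPM and overlapped one another, and no test between them is given for *HDA2*, which passed the minimum through Col-0.

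The genes beside *HDA2* did not share its pattern. Its 3′ end overlaps that of *FC1* (AT5G26030, a ferrochelatase gene of heme synthesis on the opposite strand) by 34 bases, and whether reads were counted by strand is not given in the sources used here. *FC1* was 39.68 and 36.53 TPM in *een-1* air against 34.38 and 29.59 in L*er*. In the second table it was 34.12 and 27.36 TPM in Col-0, 35.77 and 35.54 in *een-2*, 31.04 and 28.11 in *ino80-8*, and 28.12 and 27.91 in *arp5-1*, so the *FC1* libraries of Col-0 overlapped those of *ino80-8* and *arp5-1*. Farther along on that side, the log2 differences of AT5G26010 ranged from -0.36 to 0.71 over the 7 comparisons, and those of *TGG1* (AT5G26000, a myrosinase of glucosinolate breakdown) from -1.37 to 1.84. On the other side, AT5G26050 was listed at 0 in all libraries, AT5G26060 reached 0.19 TPM at most, and AT5G26070 ranged from -0.82 to 2.23 on the log2 scale. Of the 5 neighbours that were listed above 0, none was lower than its wild type in all 7 comparisons.

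**Figure D2:**
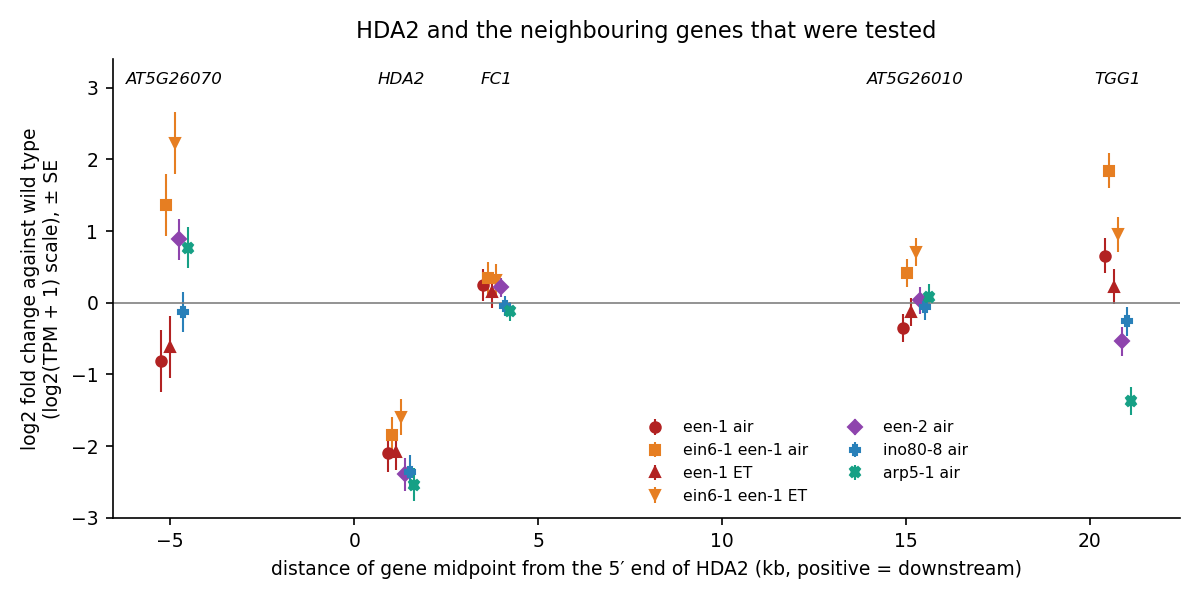
Log2 fold change against wild type (log2(TPM + 1) scale, ± SE) of *HDA2* and its tested neighbours, by the distance of each gene's midpoint from the 5′ end of *HDA2* (kb), for the 7 mutant comparisons (colours and shapes). *HDA2* lies between -2.54 and -1.59, whereas *FC1*, whose 3′ end overlaps it, lies near 0.

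The genes whose pattern over the 28 libraries was most like that of *HDA2* were looked for among 15153 genes with a mean of at least 5 TPM. They were AT3G21390 (Pearson r = 0.91 of log2(TPM + 1), centred within each table), AT3G24100 (r = 0.90), AT1G44820 (r = 0.90), *WRKY57* (AT1G69310, a WRKY transcription factor gene, r = 0.89) and AT5G51260 (r = 0.89). The libraries share genotypes and the values fall into a high and a low set, so these r describe that split and carry no p. AT3G24100 had the widest range of the 5, with 152.7 TPM on average in Col-0 and 22.4, 17.9 and 19.9 in *een-2*, *ino80-8* and *arp5-1*, while its averages in L*er* air and *een-1* air were 183.96 and 101.5. *WRKY57* averaged 13.3 TPM in Col-0 and 4.58, 4.13 and 2.63 in the same mutants. None of the other tested deacetylase genes followed *HDA2*: their r with it lay between -0.28 (*HDA19*) and 0.07 (*HDA8* and *HDA14*).

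The family differed widely in level. In L*er* air the order was *HDA19* (64.2 ± 8.8 TPM, SD, n = 2), *HDA6* (20.3 ± 0.37), *HDA8* (13.6 ± 0.47), *HDA9* (11.2 ± 0.40), *HDA5* (10.1 ± 0.18), *HDA15* (9.03 ± 0.23), *HDA2* (6.33 ± 2.13) and *HDA14* (2.82 ± 0.06), with no overlap between neighbours in that order. *HDA19* and *HDA6* are the best-known members, the first a partner of TPL in hormone and stress gene repression and the second needed for silencing of transposons and rRNA genes. In Col-0 *HDA19* was again highest (92.5 ± 3.8 TPM), but *HDA8* (32.6 ± 2.8) and *HDA15* (27.7 ± 0.91) came next, *HDA15* overlapping *HDA6* (27.1 ± 2.3) and *HDA9* (14.8 ± 0.30) overlapping *HDA5* (14.3 ± 1.4). The tables were not tested against each other. *HDA2* made up 3.41 to 5.83% of the summed TPM of the 10 genes in the libraries where it was high. In the mutants of the complex it made up 0.289 to 0.983%. The sum was 116.5 to 227.5 TPM in the former and 142.1 to 216.4 in the latter, which overlap when both tables are pooled. Against the wild type in air the sums, which were not rescaled, did not overlap. L*er* (129.87 and 145.37 TPM) was below *een-1* (167.62 and 175.21) and *ein6-1 een-1* (164.49 and 169.62). Col-0 (227.52 and 221.55 TPM) was above *een-2* (199.8 and 203.27), *ino80-8* (216.35 and 216.26) and *arp5-1* (142.06 and 171.73). The sums were not tested.

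*HDA7*, known from the female gametophyte, and *HDA18*, known from root epidermis patterning, were barely detected. *HDA7* was above 0 in 10 of 28 libraries and reached 0.44 TPM, and *HDA18* was above 0 in 17 and reached 0.31 TPM. Neither passed the minimum of 1 TPM in 2 libraries, so 8 of the 10 genes were tested in each table. *HDA18* lies 22 bases from *HDA5* in tandem, and their coding sequences are 90% identical over 1135 aligned bases, so the split of reads between them is uncertain.

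The 3′ part of *HDA9* exists in further copies on chromosome 3, which matters for the *arp5-1* values given below. *HDA10* (AT3G44660) lies 10.7 kb from *HDA9* and is 98.5% identical to it over 392 coding bases, and *HDA17* (AT3G44490), 127.9 kb away, is 98.2% identical over 453. The longest stretch of mRNA shared without a difference is 119 bases with *HDA10* and 125 bases with *HDA17*, so reads from it fit more than one of them. A window of 30 coding bases is shown from the TAIR10.1 genome because it is the first with the most differences among the copies, 2 (capitals), and was found at chr3:16227138-16227167 (minus strand), chr3:16215333-16215362 (minus strand) and chr3:16097988-16098017 (plus strand).
HDA9: aatcttaataccaaatcGtacatcagttcC
HDA10: aatcttaataccaaatcGtacatcagttcG
HDA17: aatcttaataccaaatcAtacatcagttcC

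The deacetylase genes did not respond to 4 hr of ET at the level of a call in any genotype. In L*er* 0 of the 8 tested genes were called by limma, where 19.5% of all tested genes were, although 2 had an unadjusted p below 0.05. *HDA14*, which encodes an enzyme reported in plastids and on microtubules, was nearest: 2.86 and 2.77 TPM in air and 5.76 and 5.99 after ET, with no overlap. Its log2 difference was 0.85 ± 0.30 (SE, adjusted p = 0.0515, and 0.119 after rescaling). *HDA9*, which acts with the SANT protein PWR, had 10.89 and 11.45 TPM in air and 14.95 and 16.4 after ET. Its log2 difference was 0.45 ± 0.20 (limma adjusted p = 0.108), and 0.20 after rescaling (adjusted p = 0.228). The median over the 8 genes was 0.29, beside 0.25 over all tested genes. Without one of the *ein6-1* libraries or one of the *ein6-1 een-1* ET libraries, which enter only the shared estimate of spread, up to 3 were called.

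In *ein6-1* 0 of 8 genes were called for ET (11.4% of all genes; 0 with an unadjusted p below 0.05). *HDA15*, which represses chlorophyll synthesis genes in the dark, was nearest with 12.74 and 12.78 TPM in air and 12.22 and 6.68 after ET, a log2 difference of -0.45 ± 0.22 (adjusted p = 0.21). The lower of its ET values is from replicate 2, whose rRNA share was 30.3%, and the difference was -0.20 after rescaling. With *ein6-1* ET replicate 1 left out instead, 3 genes were called. In *een-1* 0 of the 7 genes other than *HDA2* were called (7.35% of all genes; 0 with an unadjusted p below 0.05). The nearest was *HDA6*, with 24.28 and 25.68 TPM in air and 31.06 and 27.62 after ET (0.22 ± 0.18, adjusted p = 0.564). In the double mutant (0.379% of all genes) and in *ein2-45* (0% of all genes, with 514 at an unadjusted p below 0.05), 0 of 8 were called and 0 had an unadjusted p below 0.05. There *HDA2* and *HDA19* had the smallest p, with log2 differences of 0.43 and 0.17 and an adjusted p of 1 for each.

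**Figure D3:**
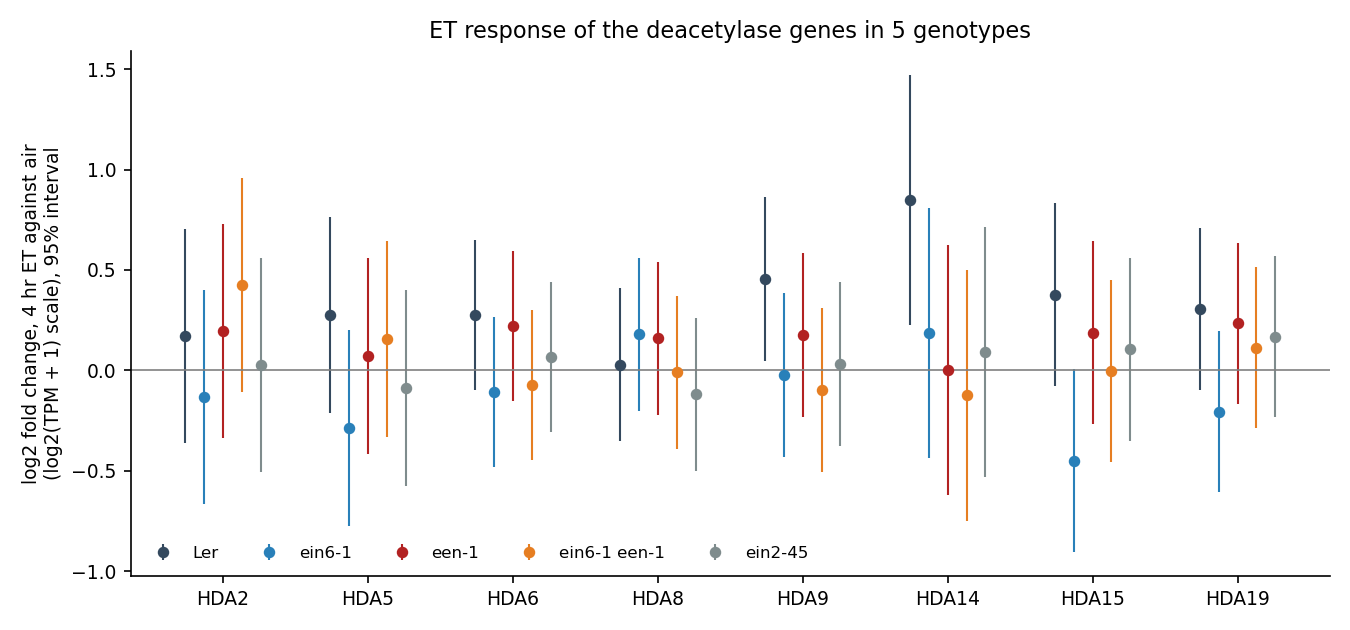
Log2 fold change of 4 hr ET against air (log2(TPM + 1) scale, points, with 95% interval) of the 8 tested deacetylase genes in 5 genotypes (colours). *HDA14* in L*er* is the highest at 0.85, and no gene passed the test in any genotype.

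The ET response of the deacetylase genes was not shown to differ between genotypes. The difference from L*er* was called for 0 of 8 genes in *ein6-1* (0.0146% of all genes), *ein6-1 een-1* (3.7%) and *ein2-45* (3.71%). In *een-1* it was called for 0 of the 7 genes other than *HDA2* (0% of all genes, with 1285 at an unadjusted p below 0.05). An unadjusted p below 0.05 was found for *HDA15* in *ein6-1* and for *HDA14* in the double mutant, and for none in the others. *HDA15* differed by -0.83 ± 0.31 (adjusted p = 0.17, and -0.32 after rescaling). *HDA14* differed by -0.97 ± 0.42 (limma adjusted p = 0.175, and -0.71 after rescaling). Without *ein6-1* ET replicate 1, which leaves the library with the high rRNA share alone in its group, 5 genes were called for *ein6-1*. For *HDA2* the differences in ET response ran from -0.30 to 0.25, each with an SE of 0.36. The limma adjusted p was 0.552 in *ein6-1*, 0.677 in *ein6-1 een-1* and 0.877 in *ein2-45*. In *een-1* the difference was 0.03, and no test is given because *HDA2* was below 1 TPM in all *een-1* libraries.

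Against L*er*, *ein6-1* had 0 of 8 genes called in air (4.19% of all genes) and 0 after ET (12.1%), with 1 and 0 at an unadjusted p below 0.05. *HDA15* was nearest in air, with 12.74 and 12.78 TPM against 9.19 and 8.86 in L*er*, a log2 difference of 0.46 ± 0.22 (adjusted p = 0.309). After ET *HDA9* was nearest, at -0.35 ± 0.20 (adjusted p = 0.235) and -0.002 after rescaling. Without *ein6-1* ET replicate 1, 5 genes were called in that comparison.

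*HDA14* was the only gene called in the first table outside the comparisons that selected *HDA2*. In air it was 7.45 and 5.35 TPM in *ein2-45* against 2.86 and 2.77 in L*er*, without overlap, and it rose by 0.94 ± 0.30 on the log2 scale (adjusted p = 0.036). It was the only one of 8 genes called there (15.8% of all genes), and the call was lost after rescaling (0.79, adjusted p = 0.0541) and when any one of these 4 libraries was left out (adjusted p up to 0.29). After ET 0 of 8 genes were called between *ein2-45* and L*er* (21.1% of all genes; 0 at an unadjusted p below 0.05), and *HDA14* was 8.53 and 5.4 TPM against 5.76 and 5.99, which overlap. *HDA9* was nearest there at -0.17 ± 0.20 (adjusted p = 0.623).

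*HDA14* was also lower in the double mutant than in *een-1*. After ET it was 2.19 and 4.41 TPM in *ein6-1 een-1* against 7.45 and 6.82 in *een-1*. It fell by 0.97 on the log2 scale (SE 0.30, adjusted p = 0.0241, and 0.029 after rescaling). This was the 1 call among 7 genes other than *HDA2*, where 21.3% of all genes were called. The call was lost without either *een-1* ET library or without *ein6-1 een-1* ET replicate 1 (adjusted p up to 0.345). In air it was 2.64 and 4.64 TPM against 6.16 and 8.2, again without overlap, and the difference of -0.84 ± 0.30 had an adjusted p of 0.0728. Of the 7 genes other than *HDA2*, 0 were called there (13% of all genes) and 1 had an unadjusted p below 0.05.

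In the comparisons that singled out *HDA2*, the other 7 tested genes are given as counts from which nothing is read. In *een-1* against L*er* 1 of 7 was called in air, *HDA14* (6.16 and 8.2 TPM against 2.86 and 2.77), beside 23.7% of all genes, and 0 after ET beside 6.85%, where *HDA19* was nearest (96.38 and 98.88 TPM against 70.95 and 88.6). After rescaling, *HDA8* (12.44 and 12.47 TPM against 13.95 and 13.28) passed in air in place of *HDA14*. For *ein6-1 een-1* against L*er* 0 of 7 were called in air (34.8% of all genes) and 0 after ET (21.4%). The nearest were *HDA9* in air (15.84 and 16.05 TPM against 10.89 and 11.45) and *HDA14* after ET (2.19 and 4.41 TPM against 5.76 and 5.99). The median log2 difference over the 7 genes was 0.40 in *een-1* air, beside 0.32 over all tested genes.

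In *een-2* against Col-0 0 of 7 were called (9.67% of all genes), in *ino80-8* 0 of 7 (2.98%), and in *arp5-1* 4 of 7, all lower (50.4%). The gene nearest to a call in *een-2* was *HDA9*, with 20.5 and 21.58 TPM against 15.03 and 14.6 in Col-0, and in *ino80-8* it was also *HDA9*, with 19.95 and 20.59 TPM. The 4 genes in *arp5-1* were *HDA8*, *HDA9*, *HDA14* (3.72 and 4.7 TPM against 7.06 and 7.37) and *HDA15*. The call of *HDA14* was lost with no minimum on TPM (limma adjusted p = 0.053). It was also lost without either Col-0 library or without *arp5-1* replicate 1. Its log2 difference ran from -0.799 to -0.527 with 1 library left out. With 50.4% of all tested genes called, 4 of 7 is near the share of all genes.

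**Figure D4:**
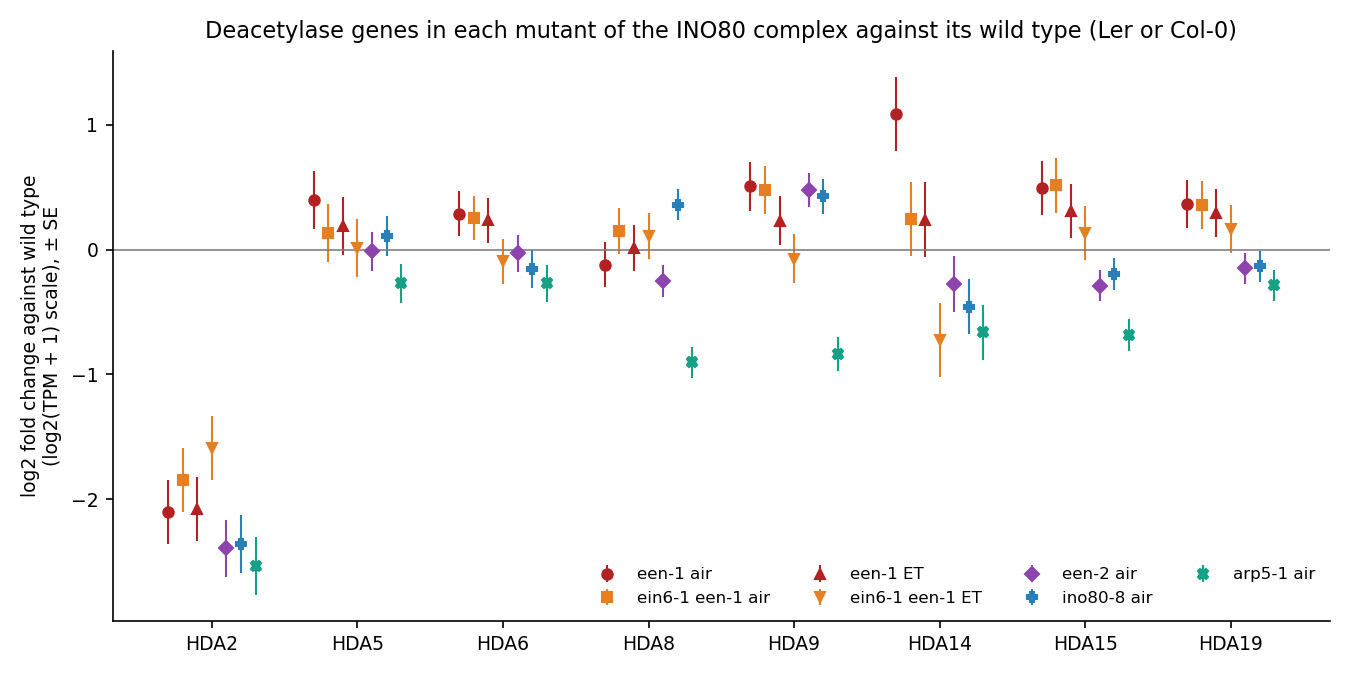
Log2 fold change (log2(TPM + 1) scale, ± SE) of the 8 tested deacetylase genes in each mutant of the INO80 complex against its wild type, L*er* or Col-0 (colours and shapes). *HDA2* lies between -2.54 and -1.59 in all 7 comparisons, and *HDA8*, *HDA9*, *HDA14* and *HDA15* are called lower in *arp5-1*, where 50.4% of all tested genes are called. The call of *HDA14* was lost under some alternatives.

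The *arp5-1* mutant differed from the other mutants of the complex in *HDA8* and *HDA9*, as it did in many genes. Of all tested genes, 44.2% were called between *arp5-1* and *ino80-8* and 30.3% between *arp5-1* and *een-2*. *HDA8*, a member with no well-defined role, had 34.58 and 30.66 TPM in Col-0, 28.18 and 26.29 in *een-2*, 41.91 and 42.28 in *ino80-8*, and 16.14 and 17.78 in *arp5-1*, and no group overlapped another. It was lower in *arp5-1* than in *ino80-8* by a log2 difference of -1.26 ± 0.13 (adjusted p = 6.12e-05) and than in *een-2* by -0.65 ± 0.13 (adjusted p = 0.00429). It was also lower in *een-2* than in *ino80-8* (-0.61 ± 0.13, adjusted p = 0.0417), a call that was lost with any one of the 8 libraries left out (adjusted p up to 0.269).

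*HDA9* had 15.03 and 14.6 TPM in Col-0, 20.5 and 21.58 in *een-2*, 19.95 and 20.59 in *ino80-8*, and 7.45 and 8.29 in *arp5-1*. The *arp5-1* libraries were the lowest and those of *een-2* and *ino80-8* overlapped. The log2 difference of *arp5-1* was -1.31 ± 0.14 from *een-2* (adjusted p = 0.000199) and -1.26 ± 0.14 from *ino80-8* (adjusted p = 0.000102). The near-identical 3′ copy *HDA10* moved the other way. It was listed at 0 in both Col-0 and both *een-2* libraries and at 0 and 0.39 TPM in *ino80-8*, but at 4.27 and 7.32 TPM in *arp5-1*. *HDA17* was 0.63 and 1.67 TPM in *arp5-1* and 0 to 1.21 TPM in the others. Within the 3′ part that they share, single bases separate these copies, as in the windows printed above. That part aligned over 392 coding bases with *HDA10* and 453 with *HDA17*, whereas *HDA9* has 1281 coding bases. How reads were divided between *HDA9*, *HDA10* and *HDA17* was not tested. Nor was the part of the background of *arp5-1*, which the sources used here do not state although the paper compares it with Col-0.

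*HDA15* had 28.3 and 27.02 TPM in Col-0, 22.63 and 22.27 in *een-2*, 23.12 and 24.95 in *ino80-8*, and 16.13 and 17.56 in *arp5-1*. The *arp5-1* libraries were again below all others. Its log2 difference in *arp5-1* was -0.49 ± 0.13 from *ino80-8* (adjusted p = 0.011, up to 0.0835 with a library left out) and -0.40 ± 0.13 from *een-2* (adjusted p = 0.0393). The second call was lost after rescaling (adjusted p = 0.121), with only the compared groups in the fit (adjusted p = 0.0953) and with any one of the 8 libraries left out. Of the 7 tested genes other than *HDA2*, 3 were called lower in *arp5-1* than in *ino80-8* (44.2% of all genes) and the same 3 than in *een-2* (30.3%), and 1 was called between *een-2* and *ino80-8* (1.92%). Against *ino80-8*, 3 of 7 is near the share of all genes, and nothing particular to these genes is read from the counts. The remaining genes, *HDA5*, *HDA6*, *HDA14* and *HDA19*, did not pass between any of these mutants.

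**Figure D5:**
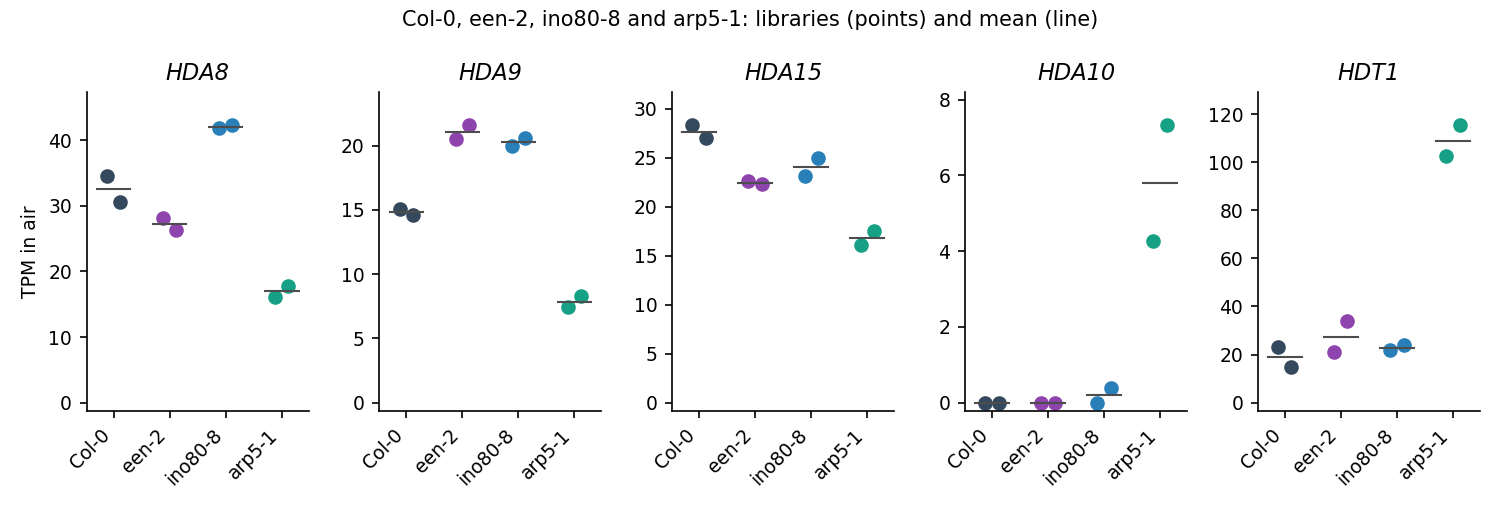
TPM in air of *HDA8*, *HDA9*, *HDA15*, *HDA10* and *HDT1* (panels) in the 2 libraries (points, with the mean as a line) of each second-table genotype. *HDA8*, *HDA9* and *HDA15* are lowest in *arp5-1*, where *HDA10* (4.27 and 7.32 TPM) and *HDT1* (102.4 and 115.3 TPM) are highest.

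Of 8 deacetylase genes outside the 10 (*HDA10*, *HDA17*, *HDT1* to *HDT4*, *SRT1* and *SRT2*), 6 were tested in the first table. With ET 4 of the 6 rose in L*er* (2 after rescaling), beside 19.5% of all tested genes called in either direction. In *ein6-1* 1 rose (1 after rescaling, 11.4% of all genes), in *een-1* 2 rose (3 after rescaling, 7.35%), and 0 were called in *ein6-1 een-1* (0.379%) and *ein2-45* (0%) before or after rescaling. How these genes and the 10 differ in ET response was not tested. *HDT3*, an HD2-type gene, had 34.71 and 38.96 TPM in L*er* air and 141.9 and 136.2 after ET, and rose by 1.89 ± 0.18 on the log2 scale (adjusted p = 1.18e-06). It had 57.38 and 70.71 TPM in *een-1* air and 209.8 and 231.4 after ET, and rose by 1.77 ± 0.18 (adjusted p = 2.89e-06). In *ein6-1* it had 42.11 and 41.49 TPM in air and 101.9 and 64.98 after ET (0.95 ± 0.18, adjusted p = 0.00173). In the double mutant it had 58.09 and 68.42 TPM in air and 56.42 and 67.23 after ET, and in *ein2-45* 37.92 and 39.12 in air and 47.86 and 47.25 after ET. The ET response of *HDT3* was smaller than in L*er* by a log2 difference of -1.92 ± 0.26 in the double mutant (adjusted p = 0.00024) and -1.59 ± 0.26 in *ein2-45* (adjusted p = 0.000967).

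In the second table *HDT1* to *HDT4* were higher in *arp5-1* than in *een-2* and *ino80-8*. *HDT1* had 23.2 and 14.83 TPM in Col-0, 20.9 and 34.1 in *een-2*, 21.87 and 23.86 in *ino80-8*, and 102.4 and 115.3 in *arp5-1*, above all others. Its log2 difference in *arp5-1* was 1.98 ± 0.24 from *een-2* (adjusted p = 0.000429) and 2.20 ± 0.24 from *ino80-8* (adjusted p = 0.000103). *HDA10* passed the minimum only through *arp5-1*, so it is left out of the counts. Of the other 7 genes, *HDT1* to *HDT4* were called higher than in *een-2* (30.3% of all genes called) and than in *ino80-8* (44.2%), and 0 were lower, also after rescaling. In air 5 of the 6 genes tested in the first table were called higher in *een-1* than in L*er* (23.7% of all genes) and 5 in *ein6-1 een-1* (34.8%), with 4 in each after rescaling.

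Of 24 genes for corepressor partners (among them *SNL1* to *SNL6*, *TPL* and its relatives, *PWR*, *HOS15*, *FVE* and *MSI1*), 2 were called higher with ET in L*er*, *FVE* (log2 difference 0.61, adjusted p = 0.0303) and *MSI1* (0.51, adjusted p = 0.0491), beside 19.5% of all genes. After rescaling *MSI1* was no longer called and *TPR4* was called lower (-0.50, adjusted p = 0.00787). In *ein6-1* 1 was called lower (2 after rescaling, 11.4% of all genes), in *een-1* 0 (1 higher after rescaling, 7.35%), and in the double mutant and *ein2-45* 0 before or after rescaling. In *arp5-1* 3 were higher and 2 lower than in *ino80-8* (5 and 2 after rescaling, 44.2% of all genes). Against *een-2* 1 was higher and 3 lower, which turned to 3 higher and 2 lower after rescaling (30.3% of all genes). Both shares of all genes are above those of the 24 partners. *SAP18*, a subunit of SIN3 complexes, was higher in both (0.84, adjusted p = 0.000608, and 0.69, adjusted p = 0.00344), and *SNL2* was lower in both (-0.65, adjusted p = 0.00753, and -0.64, adjusted p = 0.012). Of 12 histone acetyltransferase genes, 10 were tested. *HAG2* was the 1 called with ET in L*er* (0.71, adjusted p = 0.0227, 19.5% of all genes), and 0 were called by limma in ET against air of the other genotypes or between mutants of the second table. After rescaling 1 was called higher with ET in *een-1*, *HAG2* (0.50, adjusted p = 0.0404), 1 in *arp5-1* against *ino80-8*, *HAM1* (0.38, adjusted p = 0.0322), and 1 in *arp5-1* against *een-2*, *HAG3* (0.44, adjusted p = 0.0381).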

How the data were processed

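RNA-seq of the groups named above was used, with 28 distinct libraries in 14 groups of 2. The authors aligned single reads with STAR 2.6.0c to TAIR10 and used RSEM for quantification, and deposited TPM values, which were not scaled between libraries. Another 4 columns, found again in the second table, equal air libraries of *een-1* and L*er* in every gene and were counted once. The study calls the libraries biological replicates. Depth per library is unknown, so no counting error is given. Gene positions and coding sequences come from the RefSeq annotation of TAIR10.1, in which 32835 of the 33602 identifiers were found. The deposited tables carry no coordinates.

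TPM was analysed as log2(TPM + 1). A gene was tested where 2 or more libraries of its table reached 1 TPM (20592 and 20152 genes) in a linear model of group means over all groups, with limma 3.58.1 (R 4.3.3), moderated statistics with a variance trend, and p-values adjusted by Benjamini and Hochberg across the tested genes of the table. All tests are two-sided, and calls have an adjusted p below 0.05. Rescaling used median-of-ratios factors. On simulated tables with 200 changed genes, log2 changes of 1 were called for 66% of 100 genes (*ein2-45* against L*er*, 20162 genes) and 58% of 100 (*een-2* against *ino80-8*, 19905 genes). The changed genes had at least 2 TPM in every library, all others had no group difference, and the noise was independent between libraries. These rates therefore do not give the power for low genes such as *HDA2* in the mutants, or under shifts of whole libraries. Coding sequences were aligned locally with Biopython 1.88, and figures were drawn with matplotlib 3.10.9 (Python 3.11.15). The members, gene lists and tests were chosen with earlier results of these data known. By the naming rule, every member is named, and values are given for *HDA2*, for called members and for the member nearest to a call where none was, together with the 5 genes most like *HDA2* and the 3 protein-coding genes on either side of it. Other genes are named from the fixed lists where a result turns on them, and *HDT1*, *HDT3*, *SAP18*, *SNL2*, *FVE*, *MSI1*, *TPR4*, *HAG2*, *HAG3* and *HAM1* were picked from these after their values were seen. Alternatives were no minimum on TPM, pseudocounts of 0.1 and 5, rescaling, only the compared groups, replicate number as a block, and each library left out. Removal of rRNA and organelle genes, and rescaling without *ein6-1* ET replicate 2, were chosen after seeing the data. Replicate numbers were not used to pair the libraries in the main fit.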

Additional observations from a re-analysis of the deposited data

Results flagged for a closer look

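*HDA15* and *HDA19* stand out because their differences in the *een* alleles had opposite signs in the L*er* and Col-0 backgrounds before rescaling, with no overlap between the mutant and wild-type libraries in either. *HDA15* had a log2 difference of 0.497 in *een-1* against L*er* and of -0.289 in *een-2* against Col-0. *HDA19* had 0.368 in *een-1* and -0.149 in *een-2*. None of these was a call, the difference between the backgrounds was not tested, and after rescaling *HDA19* had the same sign in both (-0.01 in *een-1* and -0.22 in *een-2*), while *HDA15* had 0.15 and -0.36. Alleles and accessions differ together here and cannot be told apart.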

How the results depend on the processing

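The reduction of *HDA2* in the mutants of the INO80 complex kept its direction under every alternative, but its size followed the pseudocount: over the 7 comparisons the log2 difference ran from -3.65 to -2.01 with 0.1 and from -1.23 to -0.855 with 5. Counts of called genes changed as follows. With only the compared groups, 1 gene was called for ET in L*er*, 4 besides *HDA2* in *een-1* and 3 in *ein6-1 een-1* against L*er* in air, 1 in the double mutant against *een-1* in air, 0 in *een-2* against *ino80-8* and 2 in *arp5-1* against *een-2*. Without rRNA and organelle genes the counts were 2 in *een-1* and 1 in *ein6-1 een-1* against L*er* in air, 1 in the double mutant against *een-1* in air and 1 in *een-2* against Col-0. With no minimum on TPM 0 were called in *ein2-45* against L*er* in air, in the double mutant against *een-1* after ET and in *een-2* against *ino80-8*, and 3 besides *HDA2* in *arp5-1* against Col-0. With a pseudocount of 0.1, 0 were called in *een-2* against *ino80-8*. Rescaling, with or without *ein6-1* ET replicate 2, gave 0 in *ein2-45* against L*er* in air, and rescaling gave 2 in *arp5-1* against *een-2*. Over all genes rescaling moved the calls in *een-1* against L*er* after ET from 1410 to 3980.

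The small *HDA2* differences that were not calls changed sign in part. After rescaling they were -0.0644 for ET in L*er*, 0.119 in *ein6-1* and -0.0323 in *ein2-45*, and 0.184 and 0.0321 for the ET response of *ein6-1* and *ein2-45* minus L*er*. With *ein6-1* ET replicate 2 also left out they were -0.0632, 0.0686, -0.0326, 0.132 and 0.0306. Without rRNA and organelle genes the values for ET were 0.0847 in *ein6-1* and -0.0351 in *ein2-45*, and the ET response of *ein6-1* minus L*er* was 0.0269. With a pseudocount of 5 the ET response of *een-1* minus L*er* was -0.0446.

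With 1 library left out, the lone library of its group is assumed to vary like the others. The number of genes called then ran from 0 to 3 for ET in L*er* and in *ein6-1*, 0 to 1 for *ein6-1* against L*er* in air and 0 to 5 after ET, 0 to 2 for *ein2-45* against L*er* in air, 0 to 1 for the double mutant against *een-1* in air and after ET, 0 to 5 for the ET response of *ein6-1*, and 0 in *een-2* against *ino80-8*. Besides *HDA2*, it ran from 0 to 4 for *een-1* and 0 to 3 for *ein6-1 een-1* against L*er* in air, 0 to 1 for the latter after ET and 0 to 1 for *een-2* against Col-0. The *HDA2* difference ran from -0.129 to 0.472 for ET in L*er*, -0.393 to 0.13 in *ein6-1* and -0.196 to 0.248 in *ein2-45*. It ran from -0.0802 to 0.521 for *ein2-45* against L*er* in air and -0.148 to 0.297 after ET, and -0.194 to 0.33 for *ein6-1* after ET. For the ET response minus L*er* it ran from -0.275 to 0.326 in *een-1*, -0.0468 to 0.555 in the double mutant and -0.447 to 0.155 in *ein2-45*. Between *een-2* and *ino80-8* it ran from -0.126 to 0.0532, and between *arp5-1* and *een-2* from -0.289 to 0.00637. Without a Col-0 library *HDA2* did not pass the minimum in the second table and has no value. The calls of *HDA8* and *HDA9* in *arp5-1* against *een-2* and *ino80-8* held in every alternative.

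With replicate number as a block, the counts of calls were as without it, 1 in *ein2-45* against L*er* in air, 1 in the double mutant against *een-1* after ET, 1 in *een-2* against *ino80-8* and 3 in *arp5-1* against each of the others, and no call of a member changed. Same-numbered libraries did not deviate together in general, with a median correlation of 0.02 over 45 pairs of groups in the first table and 0.05 over 6 in the second. Single pairs ran from -0.27 to 0.26 in the first table, where 11 were above 0.1, and from -0.08 to 0.19 in the second. The main fit therefore did not pair libraries by number. TPM without depth sets a limit on how well genes near 1 TPM, as *HDA2* in the mutants, can be compared.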
